A study of Mus musculus with 15 samples.

Results

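The 10 genes studied in mouse substantia nigra belong to the lysosome: the cathepsin genes Ctsa, Ctsb, Ctsc, Ctsd, Ctsh, Ctsl, Ctss and Ctsz, and the lysosomal membrane genes Cd68 and Lamp1. They were taken by gene symbol, and all 10 were found among the 36272 genes with values. C57Bl/6J mice received an adeno-associated virus (AAV) into the substantia nigra of 1 side of the brain, and both sides were dissected 3 weeks later for poly(A) RNA sequencing. In 3 mice the vector carried microRNA-181 (miR-181), at 1.65e10 vector genomes, which gave 3 injected and 3 uninjected libraries. In a further set of mice it carried green fluorescent protein (GFP), at 1e10 vector genomes, which gave 4 injected and 5 uninjected libraries; the injected side of GFP mouse 5 was not analysed here. Both transgenes were driven by the human synapsin 1 promoter, which is active in neurons. The mice were otherwise naive, the labels describe no vehicle-injected group, and the age and sex of the animals are not given in the sources used here. Each set was prepared as its own library pool and read on its own sequencer, at its own read length, so vector, dose and library set cannot be told apart when the sets are compared.

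Lysosomes break down proteins, lipids and sugars delivered from outside the cell or by autophagy. Cathepsins are the proteases of this compartment: most are cysteine proteases, Ctsd is an aspartic protease and Ctsa a serine carboxypeptidase. Lamp1 lines the lysosomal membrane in nearly every cell, whereas Cd68, a glycoprotein of the same family, and Ctss are mainly found in microglia and macrophages, the phagocytes of brain and blood. Substantia nigra also holds neurons, astrocytes, oligodendrocytes and vessels, which use the general cathepsins too. In tissue homogenates such as these, fewer cells of a type and less RNA per cell cannot be told apart.

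Values are normalised abundances, taken to be TPM scaled by each library's size factor, so they are per transcript length and can be compared between genes. The 15 libraries summed to 970505 to 1040288, with 15022 to 15563 genes at 1 or more; sequencing depth is unknown. Dopamine neuron markers were present in every library, with summed levels of 9 genes from 1027 to 2634. Serotonin neuron markers summed to between 37.8 and 92.7 in the miR-181 set and to between 0.342 and 1.53 in the GFP set. In GFP mouse 1 the pituitary hormone genes Prl and Gh made up 4.70% of the uninjected library and 0.227% of the injected one. For the 10 genes and the other lysosomal genes named, a call that changes without that mouse is given with and without it.

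Stretches upstream of or across the start sites of 5 of these genes are shown because the 10 genes moved in 1 direction but by very different amounts. RefSeq promoter windows (GRCm38.p6, 250 bases before to 50 after the start) were matched for 8 of the 10 genes. Each stretch is written 5′ to 3′ on the gene's strand, with motif matches in capitals; a match on the other strand appears as its reverse complement. The Ctss stretch is chr3:95526726-95526795 (+), the Ctsc stretch chr7:88277835-88277954 (+) and the Lamp1 stretch chr8:13159011-13159160 (+). The Ctsd stretch is chr7:142387908-142387937 (-) and the Ctsa stretch chr2:164833755-164833784 (+).
Ctss: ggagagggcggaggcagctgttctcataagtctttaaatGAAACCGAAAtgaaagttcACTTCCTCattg
Ctsc: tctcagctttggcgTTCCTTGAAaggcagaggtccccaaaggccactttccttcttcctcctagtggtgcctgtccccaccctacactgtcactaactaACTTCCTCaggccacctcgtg
Lamp1: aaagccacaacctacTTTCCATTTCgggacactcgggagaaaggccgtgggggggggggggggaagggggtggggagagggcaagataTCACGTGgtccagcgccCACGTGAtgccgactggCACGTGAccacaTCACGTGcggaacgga
Ctsd: tcgcccgcgtcTCACGTGAcccgttgaggg
Ctsa: aactgTCACGTGAtgcagatgcTCACGTGA

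Motifs were searched on both strands of each 300-base window and were chosen with the results known, so the matches are a description. The letters TCACGTG, the core of the CLEAR element read by TFEB, a master regulator of lysosomal genes, were in the windows of Ctsa, Ctsd and Lamp1 and in 3.77% of all 32851 windows. On a palindrome such as TCACGTGA the 2 strands' matches overlap. The PU.1 letters GAGGAAGT, named for a transcription factor of myeloid cells, were in the windows of Ctsc and Ctss (3.20% of all). The interferon-stimulated response element, searched as GAAA, any 2 bases and GAAA, was in those of Ctss and Lamp1 (3.44% of all). The STAT letters TTCNNNGAA were in the Ctsc window (8.30% of all) and the AP-1 letters TGANTCA in the Cd68 window (7.81% of all). The 3 windows with TCACGTG belong to genes with small to middling changes. The 2 with GAGGAAGT belong to the genes with the largest changes in the miR-181 set, but in the GFP set Cd68 changed more than Ctsc. The windows of Cd68 and Ctsz, genes that also changed much, did not hold GAGGAAGT, and no window was matched for Ctsh. The interferon motif was in the windows of the genes that changed most and least, Ctss and Lamp1. Whether any motif bears on the size of a change was not tested, and binding was not measured.

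One of the transgenes is a microRNA, so the seed it would pair through is shown as well, in capitals (bases 2 to 8 of the mature mouse sequences in RefSeq). The labels do not say which family member the vector encodes; all 4 share the seed.
mmu-miR-181a-5p: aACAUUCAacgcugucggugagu
mmu-miR-181b-5p: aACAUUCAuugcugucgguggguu
mmu-miR-181c-5p: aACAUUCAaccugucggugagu
mmu-miR-181d-5p: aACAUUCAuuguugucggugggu

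A match to this seed of 7 bases (pairing with bases 2 to 8, or with bases 2 to 7 followed by an A) was found in the longest annotated 3′ UTR of 1 of the 10 genes, Ctsc, at base 1111 of 2737. The site with its flanks reads ggagtggtaGAATGTAtattgcat, with the matched letters in capitals. Over the 14283 tested genes with an annotated 3′ UTR, 23.8% held a match. The 10 genes' 3′ UTRs were shorter, with a median of 720 bases against 1198. Ctsc, the gene with the match, was higher on the injected side in both the miR-181 and the GFP set. Whether miR-181 acts on Ctsc through this site was not tested.

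On the side injected with AAV-miR-181, 9 of the 10 genes were higher than on the uninjected side and none was lower. Ctss, Ctsc, Cd68, Ctsz and Ctsh rose by 2.56-fold to 4.58-fold and Ctsd by 1.97-fold. Ctsb, Ctsl and Ctsa, which the uninjected tissue held at high levels, rose by 1.26-fold to 1.33-fold. Lamp1 was the gene that did not pass, at 1.13-fold. A gene was called changed when limma's Benjamini-Hochberg adjusted p over all genes tested was under 0.05. By that rule 678 of 15453 genes were higher, or 4.39%, and 230 were lower, or 1.49%. The median log2 change was 1.17 over the 10 genes and 0.00 over all genes tested. With AAV-GFP, 6 of the 10 genes were higher (Ctss, Cd68, Ctsc, Ctsz, Ctsh and Ctsd, by 1.36-fold to 2.85-fold), against 204 of 15274 genes or 1.34% of all, and none was lower; 2 of all genes, or 0.0131%, were. The other 4, Ctsl, Ctsa, Ctsb and Lamp1, did not pass there. Their median log2 change was 0.58 over the 10 genes in the GFP set.

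Ctss, the endopeptidase that antigen-presenting cells use to trim the invariant chain of MHC class II, changed most in both sets. It lies on chr3:95526786-95556403 (ENSMUSG00000038642; GRCm38, GENCODE M21). Its abundance in miR-181 mice 1, 2 and 3 was 121, 114 and 123 without and 422, 751 and 513 with the injection. GFP mice held 129, 95.7, 85.3, 91.4 and 99.2 on the uninjected sides of mice 1 to 5 and 342, 261, 259 and 281 on the injected sides of mice 1 to 4. Every injected library lay above every uninjected one in both sets, and miR-181 mouse 2 stood highest. The log2 change was 2.19 ± 0.19 (SE, n = 3 against 3; limma adjusted p = 0.00303) with miR-181. It was 1.51 ± 0.12 (n = 4 against 5; limma adjusted p = 0.000401) with GFP.

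Ctsc, a dipeptidyl peptidase that activates the serine proteases of immune cell granules, had the lowest mean of the 10 genes on the uninjected sides (chr7:88278085-88310888, ENSMUSG00000030560). In the miR-181 set it measured 7.75, 7.39 and 9.74 without and 22.2, 47.3 and 35.9 with injection in mice 1, 2 and 3. The uninjected sides of the GFP set held 8.24, 5.98, 4.90, 5.44 and 5.48 and the injected sides 14.5, 12.8, 9.08 and 12.4. Groups did not overlap in either set, and GFP mouse 3 was the lowest injected library. It rose by 1.96 ± 0.26 on the log2 scale (SE; limma adjusted p = 0.0115) with miR-181 and 0.97 ± 0.16 (limma adjusted p = 0.0180) with GFP.

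Ctsz, a carboxypeptidase (chr2:174427493-174439039, ENSMUSG00000016256), measured 52.1, 55.5 and 55.7 on the uninjected and 108, 196 and 155 on the injected sides of miR-181 mice 1, 2 and 3. Its levels with GFP were 57.1, 42.2, 43.1, 42.6 and 40.9 without and 77.4, 90.1, 63.7 and 80.0 with injection. The groups were apart in both sets, although the uninjected side of GFP mouse 1, the library with pituitary RNA, came near the lowest injected side. Ctsz rose by 1.44 ± 0.19 on the log2 scale (SE; limma adjusted p = 0.0122) with miR-181 and 0.78 ± 0.12 (limma adjusted p = 0.00970) with GFP. With the mouse as a block the GFP change was 0.74 and missed the threshold (limma adjusted p = 0.0565), and without both libraries of GFP mouse 1 it was 0.86 (limma adjusted p = 0.00831).

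Ctsh, an aminopeptidase (chr9:90054152-90076089, ENSMUSG00000032359), measured 18.5, 20.5 and 30.6 on the uninjected and 46.4, 77.3 and 56.9 on the injected sides of miR-181 mice 1, 2 and 3. GFP mice held 22.2, 21.5, 15.3, 20.0 and 25.4 on uninjected and 36.3, 34.9, 30.6 and 35.5 on injected sides. Uninjected levels were uneven here: the highest was miR-181 mouse 3 in the first set and GFP mouse 5 in the other, yet none reached an injected value of its own set. The log2 change was 1.36 ± 0.23 (SE; limma adjusted p = 0.0244) with miR-181 and 0.72 ± 0.12 (limma adjusted p = 0.0196) with GFP. Without both libraries of GFP mouse 1 the GFP change was again 0.72, with a limma adjusted p of 0.0905.

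Ctsd, the main aspartic protease of lysosomes (chr7:142375911-142388038, ENSMUSG00000007891), joined a high level on the uninjected sides to a clear change. On the uninjected sides of miR-181 mice 1, 2 and 3 it measured 447, 462 and 455, a coefficient of variation of 1.62%, and on the injected sides 726, 1072 and 919.6. The GFP set held 515, 514, 447, 439.5 and 470.0 on uninjected and 636, 699.8, 594 and 665 on injected sides. The groups were apart in both sets, and the 3 miR-181 mice differed more among themselves on the injected side than on the other. Ctsd rose by 0.97 ± 0.13 on the log2 scale (SE; limma adjusted p = 0.0115) with miR-181 and 0.44 ± 0.06 (limma adjusted p = 0.00761) with GFP. The annotated gene Gm49369 overlaps Ctsd on the same strand, so reads of the 2 may be shared.

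Ctsb, a cysteine protease with endopeptidase and exopeptidase activity, was the most abundant of the 10 genes on the uninjected sides (chr14:63122462-63145923, ENSMUSG00000021939). It measured 533, 541 and 573 on the uninjected and 649, 806 and 739 on the injected sides of miR-181 mice 1, 2 and 3. The GFP set held 611, 595, 568, 559.6 and 566 on uninjected and 650.2, 705, 629.9 and 651 on injected sides. Groups did not overlap in either set, but the step was small, at 0.41 ± 0.08 log2 units (SE; limma adjusted p = 0.0375) with miR-181. With GFP the log2 change was 0.18 ± 0.04 and did not pass (limma adjusted p = 0.0804). It passed in 1 of 18 alternative fits, the one without the uninjected library of GFP mouse 1 (limma adjusted p = 0.0487). Without both libraries of that mouse it did not pass, nor with the mouse as a block (limma adjusted p = 0.161).

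Ctsl, a cysteine endopeptidase (chr13:64359337-64370890, ENSMUSG00000021477), measured 161, 166 and 158 on the uninjected and 198, 227 and 214 on the injected sides of miR-181 mice 1, 2 and 3. GFP mice had 195, 171, 146, 147 and 154 on uninjected and 192, 209, 177 and 203 on injected sides. The miR-181 groups were apart and the GFP groups overlapped, because the uninjected side of GFP mouse 1 was above 2 of the 4 injected libraries. The log2 change was 0.39 ± 0.06 (SE; limma adjusted p = 0.0156) with miR-181 and 0.27 ± 0.09 (limma adjusted p = 0.281) with GFP. The GFP change passed in 1 of 18 alternative fits, the one without the uninjected library of GFP mouse 1 (limma adjusted p = 0.0455). Without both libraries of that mouse it did not pass, nor with the mouse as a block (limma adjusted p = 0.353).

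Ctsa, a serine carboxypeptidase that also holds beta-galactosidase and neuraminidase in a stable complex (chr2:164832873-164841032, ENSMUSG00000017760), had the smallest change of the genes called. It measured 128, 134 and 125 on the uninjected and 148, 176 and 167 on the injected sides of miR-181 mice 1, 2 and 3. The GFP set held 139.7, 149, 127, 126 and 129 on uninjected and 152, 170.0, 139 and 158 on injected sides, and these groups overlapped. The log2 change was 0.34 ± 0.07 (SE; limma adjusted p = 0.0410) with miR-181 and 0.21 ± 0.07 (limma adjusted p = 0.295) with GFP.

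Cd68, the membrane glycoprotein used as a marker of phagocytes (chr11:69664213-69666153, ENSMUSG00000018774), measured 12.7, 12.1 and 15.2 on the uninjected and 34.4, 48.0 and 38.1 on the injected sides of miR-181 mice 1, 2 and 3. GFP mice had 12.4, 13.2, 11.4, 8.69 and 7.76 on uninjected and 22.3, 24.3, 17.8 and 26.8 on injected sides. The groups were apart in both sets, with GFP mouse 3 the lowest injected library. Cd68 rose by 1.55 ± 0.14 on the log2 scale (SE; limma adjusted p = 0.00348) with miR-181 and 1.07 ± 0.17 (limma adjusted p = 0.0118) with GFP. With the mouse as a block the GFP change was 0.97 and missed the threshold (limma adjusted p = 0.0697).

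Lamp1, the general glycoprotein of the lysosomal membrane (chr8:13159161-13175338, ENSMUSG00000031447), measured 434, 455 and 441 on the uninjected and 478, 519 and 500.1 on the injected sides of miR-181 mice 1, 2 and 3. The GFP set held 440.0, 428, 418, 426 and 442 on uninjected and 468, 454, 449.9 and 448 on injected sides. Injected libraries lay above uninjected ones in both sets, by a narrow margin. Neither change passed: the log2 change was 0.17 ± 0.05 (SE; limma adjusted p = 0.0857) with miR-181, and 0.08 ± 0.03 (limma adjusted p = 0.421) with GFP. The 95% interval with miR-181 was 1.04-fold to 1.22-fold for Lamp1 and 2.32-fold to 3.67-fold for Cd68, the other membrane gene.

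**Figure D1:**
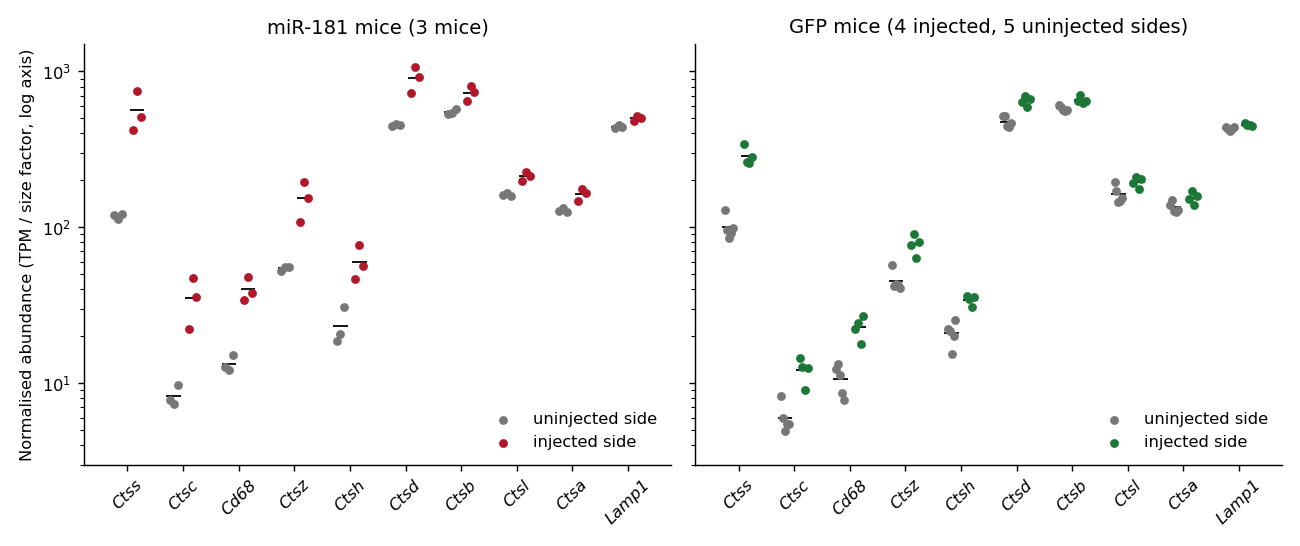
Normalised abundance of the 10 genes in each library, on a log axis, with miR-181 mice on the left and GFP mice on the right; grey points are uninjected sides, coloured points injected sides, and short bars group means. Injected and uninjected sides are apart for all 10 genes in the miR-181 set and for all but Ctsl and Ctsa in the GFP set.

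Every injected library lay above every uninjected one for 10 of the 10 genes in the miR-181 set, a pattern that 16.0% of all tested genes showed, and for 8 of the 10 in the GFP set, against 3.29% of all tested genes. In uninjected tissue the order of levels was the same in both sets: Ctsb, Ctsd, Lamp1, Ctsl, Ctsa, Ctss, Ctsz, Ctsh, Cd68 and Ctsc. Ctsd and Lamp1 overlapped over the uninjected libraries of both sets, and in the GFP set so did Ctsl with Ctsa, Ctsa with Ctss and Cd68 with Ctsc. Ctsb stood at the 98.9th percentile of tested genes in uninjected tissue of the miR-181 set and Ctsc at the 30.5th. Genes low in this order tended to have the larger log2 changes, though Ctss, in place 6 of the order, changed most in both sets. Spearman's rho between uninjected level and log2 change over the 10 genes was -0.67 in the miR-181 set and -0.75 in the GFP set. It is given as a description, since the genes share libraries and the level enters both measures.

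The summed abundance of the 10 genes was 1956 ± 37.3 (SD, n = 3) on the uninjected and 3363 ± 545 (n = 3) on the injected sides of miR-181 mice, and 1967 ± 114 (n = 5) and 2546 ± 125 (n = 4) in the GFP set. Ctsd made up 32.1% and Ctss 31.5% of the summed rise with miR-181, and Ctsb, despite its small fold change, 12.9%. With GFP the shares were 32.0% for Ctss, 29.7% for Ctsd and 13.7% for Ctsb. Ctsc and Cd68, with large fold changes from low levels, gave 1.91% each in the miR-181 set, and 1.07% and 2.10% in the GFP set.

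Within the miR-181 set the injected libraries kept 1 order for all 10 genes: mouse 2 highest, then mouse 3, then mouse 1. The median log2 change of the 10 genes from the uninjected to the injected side of the same mouse was 0.87 in mouse 1, 1.51 in mouse 2 and 0.95 in mouse 3. The largest change was in mouse 2 for 9 genes, and in mouse 3 for Ctsa. In the GFP set the median change was 0.37 in mouse 1, 0.57 in mouse 2, 0.49 in mouse 3 and 0.70 in mouse 4. GFP mouse 4 had the largest change for 6 genes and GFP mouse 1 the smallest for 7, among them Ctsl at -0.02, the lone negative change among the 10 genes in the 7 mice. GFP mouse 3 was the lowest injected library for 9 of the 10 genes.

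**Figure D2:**
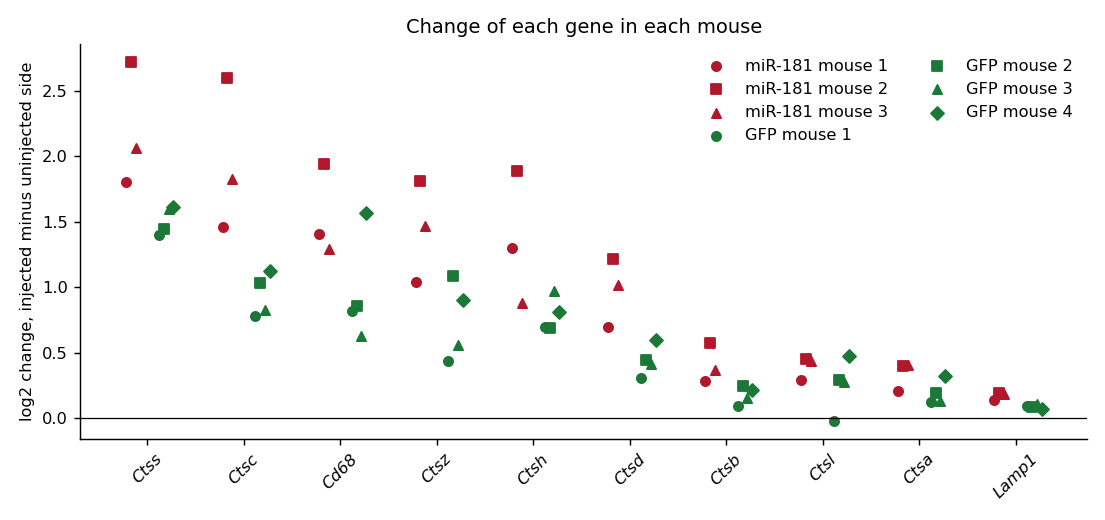
log2 change from the uninjected to the injected side of each mouse (y axis) for the 10 genes (x axis); red symbols are the 3 miR-181 mice and green symbols the 4 GFP mice with both sides. miR-181 mouse 2 is highest for 9 genes, and the red and green symbols are apart for Ctss, Ctsc, Ctsd, Ctsb and Lamp1.

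The change with miR-181 was the larger of the 2 estimates for all 10 genes, by a ratio of log2 changes from 1.44 to 2.22. Tested on the changes of 3 miR-181 and 4 GFP mice, the difference itself passed for none of the 10 genes, while 5 of 14824 genes passed, or 0.0337% of all; 7 of the 10 had an unadjusted limma p under 0.05, each with the larger change in the miR-181 set, as did 7.04% of all genes tested. Ctsc had the largest difference, 1.02 on the log2 scale (95% interval 0.46 to 1.59; limma adjusted p = 0.139). The difference was 0.70 for Ctsz (95% interval 0.23 to 1.16; limma adjusted p = 0.184) and 0.68 for Ctss (0.25 to 1.11; limma adjusted p = 0.173). For Ctsd it was 0.54 (0.26 to 0.81; limma adjusted p = 0.120) and for Cd68 0.58 (0.03 to 1.13; limma adjusted p = 0.310). For Lamp1 it was 0.08 (-0.02 to 0.18; limma adjusted p = 0.403), an interval whose upper end is a 1.13-fold greater change.

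For 5 genes, Ctsb, Ctsc, Ctsd, Ctss and Lamp1, the smallest change in a miR-181 mouse exceeded the largest in a GFP mouse, a pattern in 6.83% of all genes tested. Ctsd changed by 0.70, 1.21 and 1.01 in the miR-181 mice and by 0.31, 0.44, 0.41 and 0.60 in the GFP mice. Ctss changed by 1.80, 2.72 and 2.06 against 1.40, 1.44, 1.59 and 1.61. Cd68 did overlap: GFP mouse 4, at 1.57, changed more than miR-181 mice 1 and 3, at 1.40 and 1.30. Without miR-181 mouse 1, which had the smallest median change of its set, the difference passed for Ctsd (0.67, limma adjusted p = 0.0171), Ctsc (1.27, 0.0393) and Ctss (0.88, 0.0479). In that fit 2.11% of all genes tested passed in either direction, and none of the 10 passed without any of the other 6 mice, where at most 0.0135% of all genes did.

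**Figure D3:**
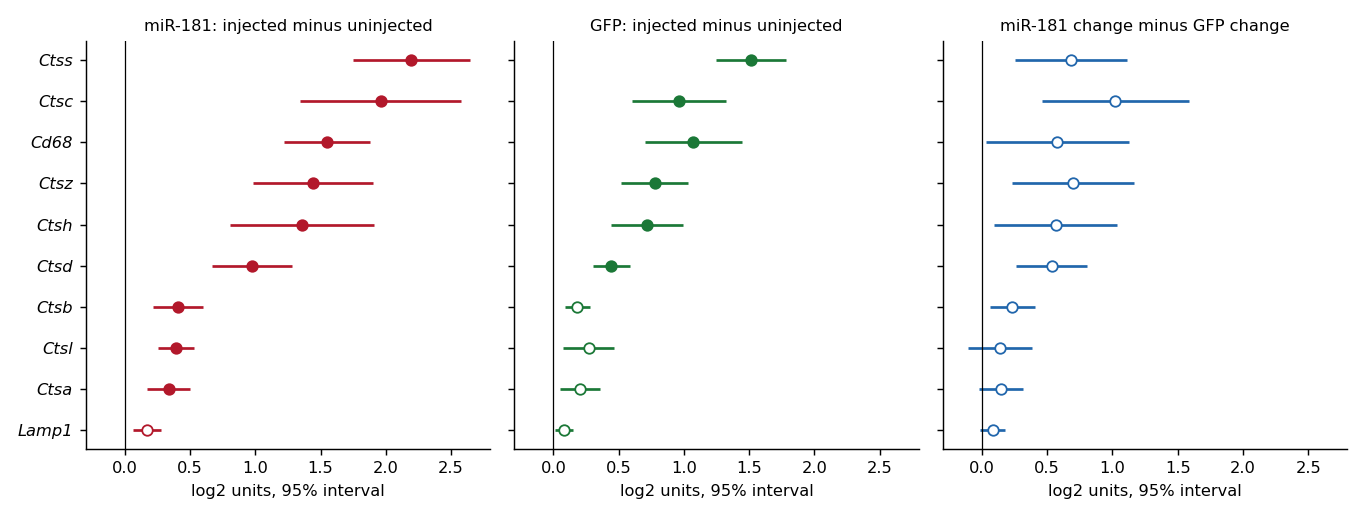
log2 change with its 95% interval for the 10 genes, from left to right in the miR-181 set, in the GFP set and as the difference between the changes of the 2 sets; filled points have an adjusted p under 0.05. The filled points number 9, 6 and 0.

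Leaving out 1 library at a time, Ctss and Cd68 passed in the miR-181 set without any of its 6 libraries. The number of the 10 genes called there was 2 without the injected library of mouse 3, or the uninjected library of mouse 1 or 2, 4 without the uninjected library of mouse 3 and 6 without the injected library of mouse 2; it was 10 without the injected library of mouse 1. The share of all genes tested that passed in either direction was 0.757% to 1.28% in the fits that called 2 of the 10 genes, 1.17% with 4, 3.33% with 6 and 12.5% with 10. In the GFP set Ctss, Ctsd, Ctsz and Cd68 passed without any 1 of the 9 libraries, and the count ranged from 4 (without the injected library of mouse 1, 2 or 4) to 8 (without the uninjected library of mouse 1), beside 0.754% to 0.853% and 1.67% of all genes tested. No gene of the 10 turned direction in any of these fits.

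Over 6 lists of other lysosomal genes, chosen with these data known, 19 of 88 tested were higher with miR-181 and none was lower. Of all genes tested, 4.39% were higher there and 1.49% lower. With GFP 8 of 87 were higher, against 1.34% of all genes tested, and none was lower. The log2 change was above 0 for 62 of 88 with miR-181 and 65 of 87 with GFP. Of all genes tested it was above 0 for 7857 of 15453 and 7914 of 15274. The median log2 change was 0.10 and 0.05. These medians lay close to that of all genes tested, 0.00 in both sets, and below those of the 10 genes, 1.17 and 0.58. The share called higher was above that of all genes tested in both sets.

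Among 5 tested further cathepsins and legumain, 3 were higher with miR-181 and none was called with GFP (3 at an unadjusted limma p under 0.05). Lgmn, legumain, an asparagine-specific protease that processes cathepsins, rose by 0.48 ± 0.08 log2 units (SE; limma adjusted p = 0.0209) with miR-181 and did not pass with GFP, at 0.21 ± 0.05 (0.0876). Ctsw, a cathepsin of cytotoxic lymphocytes, rose from 0.737 ± 0.262 to 6.03 ± 3.87 (SD, n = 3 and 3) with miR-181, or by 2.26 ± 0.41 on the log2 scale (SE; limma adjusted p = 0.0284). Ctso rose by 0.37 ± 0.08 (0.0479), and missed the threshold with the mouse as a block (0.0554). Ctsf, at -0.08 ± 0.07 (0.512) with miR-181, did not pass. Ctsw is the 1 gene of that list whose estimate reached those of Ctss and Ctsc.

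Cystatins are inhibitors of the cysteine cathepsins, and 1 of 4 was called in each set. Cst7, cystatin F, which sits inside endosomes and lysosomes of immune cells and limits Ctsc, was at 0.573 ± 0.313 on the uninjected and 32.2 ± 14.7 on the injected sides of miR-181 mice (SD, n = 3 and 3). Its log2 change was 4.87 ± 0.35 (SE; limma adjusted p = 0.00225) with miR-181. In the GFP set it went from 0.322 ± 0.216 (n = 5) to 7.10 ± 5.14 (n = 4), or by 3.02 ± 0.39 on the log2 scale (limma adjusted p = 0.00442). The abundant secreted cystatin Cst3 and the cytosolic Cstb did not pass, at 0.18 ± 0.09 (0.274) and 0.19 ± 0.06 (0.107) with miR-181. The estimates of Cst7 exceeded those of all 8 cathepsins in both sets, but this comparison of sizes was not tested.

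Of 18 other membrane proteins tested, 4 were higher with miR-181 and 2 with GFP. Slc11a1, a metal transporter of phagocyte lysosomes, changed by 2.18 ± 0.19 (SE; limma adjusted p = 0.00307) with miR-181 and 1.38 ± 0.14 (0.00112) with GFP. Laptm5, a lysosomal protein of blood cells and microglia, changed by 1.49 ± 0.21 (0.0133) and 0.88 ± 0.11 (0.00406). The general tetraspanin Cd63 rose by 0.50 ± 0.07 (0.0147) with miR-181, and its GFP value of 0.15 ± 0.10 (0.698) did not pass. Lamp2, the companion of Lamp1, is named because it completes that count: it rose by 0.37 ± 0.07 (0.0372) with miR-181.

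Of the soluble lysosomal proteins, 10 of 34 were higher with miR-181 and 5 of 33 with GFP. Man2b1, lysosomal alpha-mannosidase, changed by 0.87 ± 0.12 (SE; limma adjusted p = 0.0118) with miR-181 and 0.46 ± 0.08 (0.0174) with GFP, the latter missing the threshold with the mouse as a block (0.0682). Gusb, beta-glucuronidase, rose by 0.52 ± 0.11 (0.0448; 0.0652 with the mouse as a block) and 0.40 ± 0.06 (0.0100). Without both libraries of GFP mouse 1, Gusb no longer passed in the GFP set (limma adjusted p = 0.0662).

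Of 18 tested subunits of the V-ATPase, the pump that acidifies lysosomes, 1 was called with miR-181 and none with GFP (1 at an unadjusted limma p under 0.05). Tcirg1, the subunit isoform of osteoclasts and macrophages, rose by 0.91 ± 0.16 (SE; limma adjusted p = 0.0245; 0.0520 with the mouse as a block) with miR-181 and did not pass with GFP, at 0.52 ± 0.11 (0.0669). In the GFP set Tcirg1 did pass with the mouse as a block (limma adjusted p = 0.0169) and without both libraries of GFP mouse 1 (0.0105). Atp6v0e, another subunit, missed the threshold with miR-181, at 0.29 ± 0.07 (0.0556), and passed there with the block (0.0362). The median over the 18 subunits was 0.00 and 0.01. None of 9 sorting and transcription factor genes was called in either set, with 1 and 0 at an unadjusted limma p under 0.05; with miR-181, Tfe3 was at 0.28 ± 0.07 (0.0686) and Tfeb at 0.21 ± 0.13 (0.395).

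Leaving out 1 library at a time, Cst7 and Slc11a1 passed in all 6 fits of the miR-181 set. Lgmn, Ctsw, Ctso, Laptm5, Cd63, Lamp2, Man2b1, Gusb and Tcirg1 passed in 1 to 3 of the 6. Each of these missed the threshold when mouse 2 or mouse 3 lost its uninjected side, all but Cd63 when mouse 1 did, and all but Man2b1 when the injected side of mouse 3 was dropped. Ctso, Lamp2, Gusb and Tcirg1 also missed it without the injected library of mouse 2. With GFP, Cst7, Slc11a1, Laptm5 and Gusb passed in all 9 fits and Man2b1 in 5; Tcirg1 passed in 1, without the uninjected library of mouse 1.

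**Figure D4:**
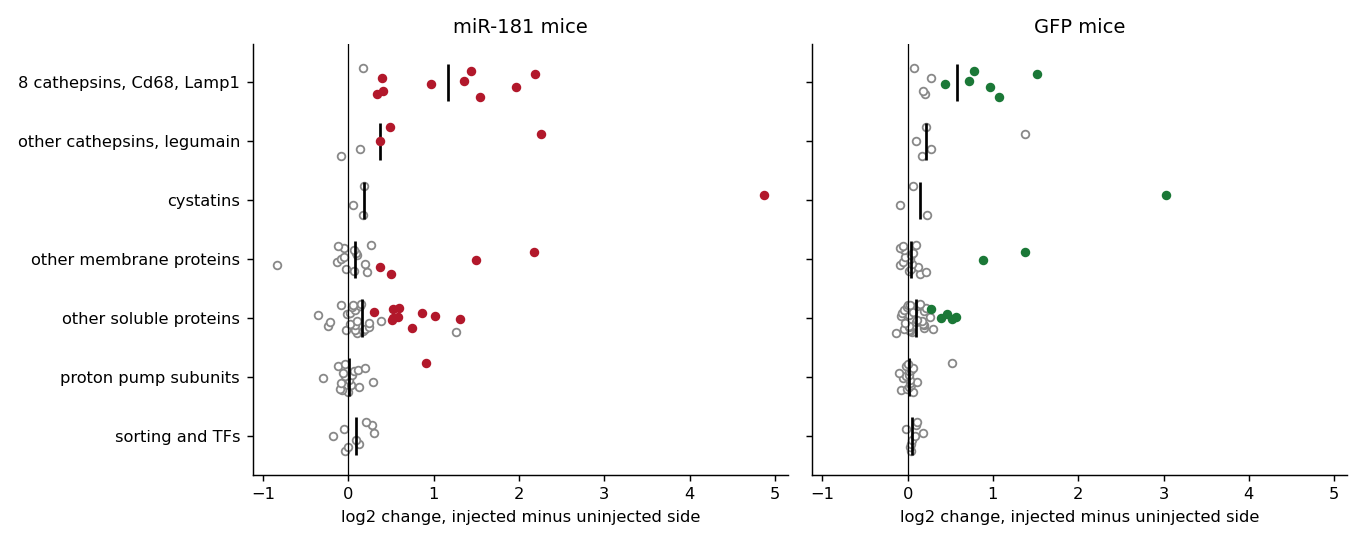
log2 change from the uninjected to the injected side for each tested gene of the 10-gene set and of 6 further lysosome lists, with miR-181 mice on the left and GFP mice on the right. Filled points have an adjusted p under 0.05 and vertical bars are list medians; the proton pump and sorting lists lie around 0 while the 10 genes lie to the right, and Cst7 is the point at 4.87 and 3.02.

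With miR-181, 8 of 12 microglia markers were called higher and none lower, with a median of 0.78. With GFP it was 5 of 12, with a median of 0.49. Of all genes tested, 4.39% were called higher and 1.49% lower with miR-181, and 1.34% higher with GFP. Their summed level was 286 to 309.8 on the uninjected and 459 to 636 on the injected sides of miR-181 mice, and 224 to 281 and 339.7 to 402 in the GFP set. No marker on that list was at 0 in any group. Aif1, a calcium-binding protein that rises in activated microglia and macrophages, rose 3.99-fold (limma adjusted p = 0.00748) with miR-181 and 2.18-fold (0.000945) with GFP. P2ry12, a receptor of resting microglia, did not pass, at log2 changes of 0.21 ± 0.08 (SE; limma adjusted p = 0.160) and 0.13 ± 0.12 (0.783). Tmem119, another marker on that list, had a mean of 21.5 on uninjected and 49.0 on injected sides with miR-181. With GFP its means were 20.1 and 32.8, and its groups did not overlap in either set. The part of microglia in the change of the cathepsins was not tested.

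T and NK cell markers were called higher for 7 of 9 with miR-181, where their sum went from 12.3 to 17.5 on uninjected sides to 38.7 to 141 on injected sides. In the GFP set 3 of the 9 reached the level for testing and none was called (2 at an unadjusted limma p under 0.05); the sums were 9.23 to 20.0 and 24.8 to 29.1. Monocyte and perivascular macrophage markers were called for 2 of 6 with miR-181 and 0 of 5 with GFP (2 at an unadjusted limma p under 0.05), and their sums were 9.61 to 13.4 against 18.4 to 70.6, and 5.02 to 7.94 against 11.8 to 21.4; Plac8 was at 0 in all GFP uninjected libraries. B and plasma cell markers summed to 2.94 to 8.46 against 36.2 to 171 with miR-181, where 2 of 3 were called, and to 0.884 to 3.24 against 5.20 to 39.1 with GFP, where 1 of 1 was. Neutrophil markers did not exceed a sum of 1.52 in any library, and Ly6g was at 0 in all GFP libraries. The counts of called markers stand beside 4.39% of all genes tested called higher with miR-181 and 1.34% with GFP. The part of these cells was not tested.

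By mouse, the median change of the microglia markers was 0.53, 0.93 and 0.77 in miR-181 mice 1, 2 and 3, beside 0.87, 1.51 and 0.95 for the 10 genes. In GFP mice 1 to 4 it was 0.46, 0.34, 0.60 and 0.50, beside 0.37, 0.57, 0.49 and 0.70. Mouse 2 was highest for both in the miR-181 set, whereas the order of the GFP mice differed between the lists. T and NK cell markers had medians of 1.79, 3.78 and 2.39 in the miR-181 mice. Dopamine neuron markers, by contrast, had medians of 0.00, -0.94 and 0.05 there, so miR-181 mouse 2 held the largest change of the 10 genes and the lowest change of the dopamine markers; as a list, 0 of 9 dopamine markers were called with miR-181 (1 at an unadjusted limma p under 0.05).

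**Figure D5:**
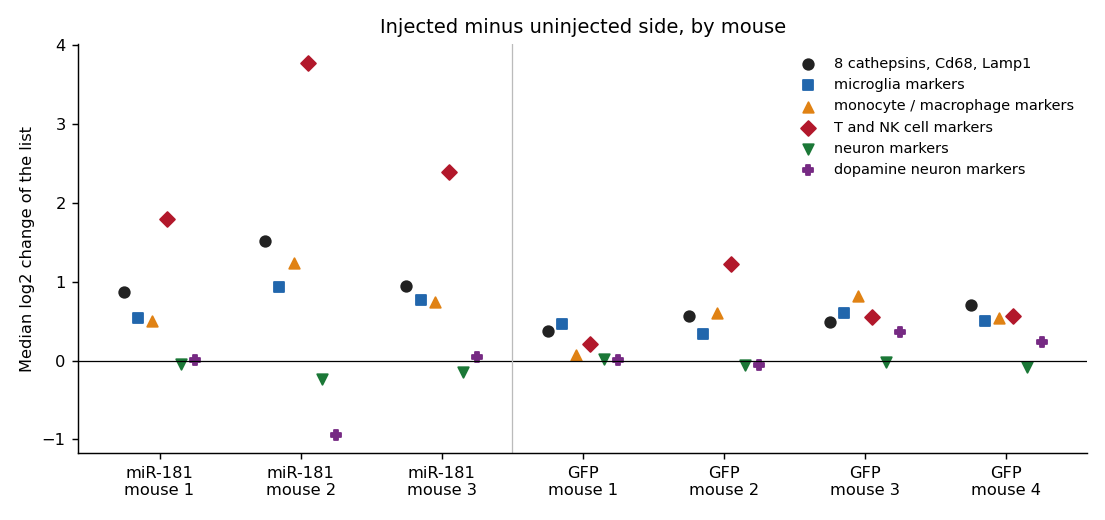
Median log2 change from the uninjected to the injected side in each mouse (x axis) for the 10 genes and 5 marker lists. Medians are over the genes tested in each set. The T and NK cell list had 9 such genes in the miR-181 set and 3 in the GFP set. For the monocyte and macrophage list these numbers were 6 and 5. miR-181 mouse 2 has the highest median for the 10 genes (1.51) and the T and NK cell markers (3.78) and the lowest for the dopamine neuron markers (-0.94).

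The genes whose levels followed the 10 genes most closely were found by Pearson's r with the mean of their standardised log2 values, taking the lower of the r over 6 miR-181 and 9 GFP libraries. Of 11757 genes, the first 5 were Laptm5 (0.98), C1qa (0.98), Cyth4 (0.98), Fermt3 (0.98) and C1qb (0.98). They are given as a description with no test, since the libraries share the injection contrast. C1qa, a chain of complement C1q, changed by 2.19 with miR-181 and 1.37 with GFP, and C1qb by 1.90 and 1.18. Within the set, Ctsd followed that mean most closely (lower r of 0.99) and Lamp1 least (0.87). Each of the 10 genes is part of that mean, so its r cannot be set beside those of other genes.

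Some of the 10 genes share their locus with other annotated genes. Ctsa overlaps Pltp and Neurl2, Ctsb overlaps Fdft1, Ctsz overlaps Nelfcd and Lamp1 overlaps Grtp1, each on the other strand, and Ctsl and Ctss hold the processed pseudogenes Gm49230 and Hmgb1-ps5. The libraries were made with a stranded kit, per the labels; how reads were split between such transcripts is not given in the sources used here.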

How the data were processed

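The members and gene lists were chosen with earlier results of these data known. Libraries were stranded poly(A) libraries, per the labels; reads were quantified with kallisto 0.43.1 and sleuth 0.30.0 on GRCm38, per the submitters' processing notes. The authors deposited, in 1 table per vector, a normalised abundance signal for each gene and library, read from its sums as TPM divided by a size factor; depth is unknown, so no counting error can be given. In each table, 388 of 36660 rows that repeated the symbol and all values of another row were left out. Each table was fitted alone with limma 3.58.1 (R 4.3.3) on log2(value + 0.5), with an intensity trend, keeping genes whose mean was 1 or more; adjustment was Benjamini-Hochberg over all genes tested, two-sided, threshold 0.05. Fold changes are on that log2 scale and understate those of low genes. The difference between sets was fitted on each mouse's own log2 change. The code was tested on simulated data.

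Both sides come from the same mouse, per the labels, so mouse numbers pair the libraries; deviations from group means correlated at 0.14 to 0.26 within miR-181 mice and 0.02 to 0.19 within GFP mice. Alternatives were pseudocounts of 0.1 and 1, no filter, a mean of at least 5, quantile and median scaling, no trend, the mouse as a block, each library left out and GFP mouse 1 left out. Named list genes are the 3 with the smallest unadjusted p in each set; Lamp2 and Lamp5 were chosen after their values were seen; a few others it would name were left out. Gene positions are from GENCODE M21 (GRCm38), which held 35866 of the 36272 genes.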

Additional observations from a re-analysis of the deposited data

Results flagged for a closer look

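Ctsz in the uninjected side of GFP mouse 1 measured 57.1, far from the other 4 uninjected GFP libraries, which lay between 40.9 and 43.1; its gap to the nearest of them was 0.865 of the group's range, above Dixon's critical value of 0.71. Such a gap is flagged by chance in about 1 in 20 groups, and 20 groups of these genes were looked at. The same library held 4.70% Prl and Gh; whether that RNA bears on its Ctsz level was not tested.

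Lamp5, a membrane protein of the LAMP family found in neurons, was the 1 gene of the lysosome lists whose change differed between the sets, by -0.82 ± 0.09 (SE; limma adjusted p = 0.0473) on the log2 scale, miR-181 minus GFP. Its values were -0.77, -0.85 and -0.89 in the 3 miR-181 mice and 0.05, -0.12, -0.08 and 0.08 in the 4 GFP mice, so it was lower in 3 of 3 miR-181 mice. Levels varied widely between miR-181 mice, from 19.0 to 64.3 on uninjected sides, and without pairing its change there did not pass (-0.84 ± 0.56, limma adjusted p = 0.424); with the mouse as a block it did (limma adjusted p = 0.0102). The difference passed in 4 of 14 alternatives, with adjusted p from 0.0139 to 0.267.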

How the results depend on the processing

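No log2 change of the 10 genes turned direction in any alternative. With the mouse as a replicate block, the counts of genes called were 148 lower in the miR-181 set and 122 higher in the GFP set, against 230 and 204; 626 of the 908 and 108 of the 206 calls were shared with the unblocked fit. Ctsz and Cd68 lost their call in the GFP set under the block, as given above, and the block changed no other call of the 10 genes; Lamp5 was the 1 gene of the lysosome lists called lower in the miR-181 set with the block, and 1 gene was when each library was centred on its median. In the miR-181 set, calls numbered 268 higher and 47 lower with no filter, and 395 higher and 54 lower with no intensity trend. Under each, 9 lysosome list genes were higher. Of the 10 genes, 6 were called with no filter, where Ctsa, Ctsb and Ctsh lost their call. With no trend 5 were called, and Ctsl lost its call as well. The share of all genes tested that passed in either direction was 1.25% of 25218 with no filter. It was 2.91% of 15453 with no trend and 5.88% in the main fit. Median centring gave 468 lower and moved the share of calls that were higher from 74.7% to 57.5%. In the GFP set, 135 genes were higher and 1 lower with a mean of at least 5; lower calls numbered 7 with no filter, 4 with quantile or median scaling, and 1 without both libraries of mouse 1.

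The difference between sets had 0 genes lower, Lamp5 included, with a pseudocount of 1, no filter or quantile scaling, and 2 higher and 1 lower, with 0 of the lysosome lists, with no trend. Leaving out 1 library, the miR-181 calls ranged from 113 to 1210 higher and 4 to 714 lower, with 2 to 10 of the 10 genes and 3 to 27 lysosome list genes higher and 0 to 3 lower. The GFP calls ranged from 108 to 251 higher and 0 to 8 lower, with 4 to 8 of the 10 genes and 5 to 10 lysosome list genes higher. Leaving out 1 mouse, the difference had 1 to 167 genes higher and 0 to 146 lower, with 0 to 3 of the 10 genes, 0 to 3 lysosome list genes higher and 0 to 1 lower; the highest counts were without miR-181 mouse 1. Atp6ap1, a proton pump gene whose log2 change with miR-181 was 0.000701 (limma adjusted p = 0.994), turned to -0.022 with quantile scaling and -0.0645 with median centring, and ranged from -0.00766 to 0.00708 with 1 library left out. The causes of these changes were not tested. Depth is unknown, and 3 or 4 mice a group limit the precision.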
